A study of Mus musculus with 2 samples.

Results

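The 8 genes described here code for guidance receptors and their secreted ligands, a system first known from growing axons and also at work in vessels. They are the receptors Unc5b, Robo4 and Plxnd1 and the ligands Sema3g, Sema3c, Slit2, Slit3 and Ntn4. They were chosen by name, as the rows of a matrix of 27514 genes that carry these symbols, and each was found once. Single-cell RNA-seq was run on sorted endothelium of the dorsal aorta of mouse embryos at embryonic day 10.5. The SP3-null group (genotype label SP3KO) and the wild-type group came from matings of heterozygous Sp3 parents on a C57Bl6/J x B6129SF1/J background. The null allele is present in every cell of the embryo, and both groups share the mixed background. Embryos of a genotype were pooled, how many is not stated, and the sort kept Ter119-, CD41 low or negative, CD31+, CD144+ and ESAM+ cells. Each genotype was captured as 1 library of 3' counts of unique molecular identifiers (UMIs), so that genotype, pool and library cannot be told apart, no difference between genotypes could be tested, and every interval below covers counting error only.

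UNC5B is a netrin receptor of arterial endothelium, and netrins, FLRT3 and ROBO4 are among its known binding partners. ROBO4 is the endothelial member of the roundabout receptors, whose relatives ROBO1 and ROBO2 bind the secreted SLIT proteins. PLXND1 is the plexin of endothelium. It binds SEMA3E directly and other class 3 semaphorins such as SEMA3C together with neuropilins, and it is known to restrain sprouting in developing vessels. SEMA3G is a class 3 semaphorin of arterial endothelium, and NTN4 is a netrin found in basement membranes.

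The SP3-null library held 3954 cells and 71154918 UMIs, against 4451 cells and 79456081 UMIs in the wild-type library, and 5 barcodes occurred in both. Levels are given as CPM, the UMIs of a gene per 1000000 UMIs of the cells summed. The classes are those of the deposited cell table. Arterial endothelium (AE) is divided by high or low Wnt target expression, and so is venous endothelium (VE). Conflux AE joins both arterial streams and is followed by pre-HE, the stage before hemogenic endothelium (HE), by HE itself and by the cells of intra-aortic clusters (IAC). The AE cells of that table outnumber those that the study counted, and why was not found. AE below stands for the 922 SP3-null and 939 wild-type cells of Wnt-high and Wnt-low AE. Both AE and both VE classes, conflux AE and pre-HE together are called the summed endothelium, with 2401 SP3-null and 2639 wild-type cells. The endothelial list (Pecam1, Cdh5, Esam, Kdr and Tek) stood at 1898 CPM in the SP3-null and 1964 CPM in the wild-type summed endothelium, with none of the 5 genes at 0. In HE the endothelial list stood at 1117 CPM in SP3-null and 1281 CPM in wild-type cells, and a neural list (Sox2, Pax6, Elavl3 and Tubb3) at 182 and 126 CPM there. The same neural list was at 0 to 1.92 CPM in each of the 6 classes of the summed endothelium. An arterial list (Efnb2, Gja5, Dll4, Bmx and Hey2) stood at 168 CPM in SP3-null and 172 CPM in wild-type Wnt-high AE. Wnt-low AE had 277 and 269 CPM, Wnt-high VE 52.3 and 66.1 CPM and Wnt-low VE 89.7 and 89.8 CPM. The arterial list was far higher in conflux AE (953 and 1028 CPM) and pre-HE (1348 and 1356 CPM), and HE had 294 and 401 CPM. A venous list (Ephb4, Nr2f2, Nrp2, Emcn and Aplnr) had 965 and 1005 CPM in Wnt-high and 1019 and 968 CPM in Wnt-low AE. VE had 1050 and 1112 CPM of it in Wnt-high and 1270 and 1214 CPM in Wnt-low cells. Most of these genes also served in the authors' arterial call. Sp3 itself stood at 35.6 CPM in the SP3-null and 46.3 CPM in the wild-type summed endothelium, a log2 ratio of -0.38 (95% interval -0.48 to -0.28), and was lower in SP3-null cells in 9 of 9 classes. No source used here says whether the deletion covers the counted 3' ends, and these counts therefore do not check the genotype label.

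SP3 is known to bind GC boxes, and the promoters of the 8 genes were searched for GGGCGG on either strand, overlapping matches included. Each promoter ran from 250 bases before to 50 bases after the RefSeq start (GRCm38.p6). For Robo4, Plxnd1 and Slit2 this start lies inside the reference (RefSeq) span of the gene, which is the span printed with each gene below. All 8 genes matched, and 7 promoters held the motif, as did 35.7% of 32851 promoters of the same length. There were 3 matches in Unc5b, 0 in Robo4, 2 in Plxnd1, 1 in Sema3g, 3 in Sema3c, 3 in Slit2, 6 in Slit3 and 4 in Ntn4. At least 3 matches were found in 10.7% and at least 6 in 1.35% of all promoters. CACCC, on either strand, was found in 5 of the 8 promoters and in 57.5% of all promoters, and GGAA in 7 of the 8 and in 96.0% of all. A match is a run of letters, and no binding was measured here. Shown are the promoters of Unc5b, which had the lowest ratio between genotypes among the genes with 50 or more UMIs in the summed endothelium, of Robo4, which held no GC box in this window, and of Slit2 and Slit3, the pair that was higher in pre-HE, with GC boxes in capitals. The windows are chr10:60831532-60831831 (minus strand) for Unc5b, chr9:37401722-37402021 (plus strand) for Robo4, chr5:47982905-47983204 (plus strand) for Slit2 and chr11:35121206-35121505 (plus strand) for Slit3.
Unc5b: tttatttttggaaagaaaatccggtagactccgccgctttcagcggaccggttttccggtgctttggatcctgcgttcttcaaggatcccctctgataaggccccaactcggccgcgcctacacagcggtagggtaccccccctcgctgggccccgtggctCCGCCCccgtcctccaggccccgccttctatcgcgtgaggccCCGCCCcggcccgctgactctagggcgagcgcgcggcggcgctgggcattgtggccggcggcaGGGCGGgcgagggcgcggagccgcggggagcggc
Robo4: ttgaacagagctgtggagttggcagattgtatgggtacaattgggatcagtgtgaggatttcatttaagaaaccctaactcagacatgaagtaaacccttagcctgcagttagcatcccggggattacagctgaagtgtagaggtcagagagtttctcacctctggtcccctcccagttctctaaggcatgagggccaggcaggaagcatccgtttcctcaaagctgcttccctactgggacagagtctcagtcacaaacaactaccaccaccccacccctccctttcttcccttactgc
Slit2: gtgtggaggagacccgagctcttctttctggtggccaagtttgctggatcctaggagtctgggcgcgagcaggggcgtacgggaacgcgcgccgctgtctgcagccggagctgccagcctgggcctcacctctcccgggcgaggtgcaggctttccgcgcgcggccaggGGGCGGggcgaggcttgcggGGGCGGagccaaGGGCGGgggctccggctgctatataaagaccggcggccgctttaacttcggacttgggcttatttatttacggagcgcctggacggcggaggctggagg
Slit3: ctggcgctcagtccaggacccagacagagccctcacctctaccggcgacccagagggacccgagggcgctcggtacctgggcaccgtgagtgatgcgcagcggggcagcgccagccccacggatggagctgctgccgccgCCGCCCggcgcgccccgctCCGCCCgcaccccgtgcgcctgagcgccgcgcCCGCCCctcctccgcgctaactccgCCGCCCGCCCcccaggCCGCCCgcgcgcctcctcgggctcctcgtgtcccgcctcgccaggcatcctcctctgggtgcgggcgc

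Among the receptors, Unc5b (Ensembl ENSMUSG00000020099, chr10:60762594-60831581) had the steepest course over the classes. It stood at 50.7 CPM in SP3-null and 60.3 CPM in wild-type Wnt-high AE, with 98.4 and 104 CPM in Wnt-low AE, and 241 and 268 CPM in conflux AE. Pre-HE had 176 CPM in SP3-null and 142 CPM in wild-type cells. HE had 30.1 CPM in SP3-null and 55.1 CPM in wild-type cells, and IAC 4.88 and 7.35 CPM. VE was low, with 6.73 and 11.0 CPM in Wnt-high and 15.7 and 18.7 CPM in Wnt-low VE, and other endothelium had 7.50 and 6.70 CPM. Conflux AE was thus the highest class in both libraries, pre-HE the next and Wnt-low AE the one after, each step beyond counting error. Wnt-high AE and HE did not differ beyond counting error in wild-type cells but did in SP3-null cells, and among the lowest classes (IAC, other endothelium and Wnt-high VE) no class differed from the next beyond counting error. Wild-type Wnt-high VE (8.86 to 13.4 CPM) and other endothelium (5.84 to 7.67 CPM), not neighbours in that order, had intervals that did not overlap. At least 1 Unc5b UMI was found in 88.3% of SP3-null and 88.3% of wild-type conflux AE cells, and after thinning each cell to 5000 UMIs in 69.8% and 72.1%. In IAC the share was 8.41% of SP3-null and 9.38% of wild-type cells, at a median of 30343 and 31009 UMIs per cell against 8850 and 9248.5 in conflux AE, and 4.85% and 3.97% after thinning.

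Robo4 (ENSMUSG00000032125, chr9:37401902-37414023) was spread over arterial and venous endothelium and lowest in HE and IAC. It stood at 45.6 CPM in SP3-null and 58.1 CPM in wild-type Wnt-high AE, with 53.3 and 57.6 CPM in Wnt-low AE, at 61.4 and 56.3 CPM in conflux AE and at 38.2 and 31.9 CPM in pre-HE. VE had 29.1 and 31.9 CPM in the Wnt-high and 32.2 and 31.9 CPM in the Wnt-low class. In HE only 4 SP3-null and 14 wild-type UMIs were counted, 4.47 and 12.4 CPM, and IAC had 2.58 and 3.32 CPM. Neighbours in the order of both AE classes and conflux AE did not differ beyond counting error in either library, although conflux AE over both AE classes summed had a log2 ratio of 0.34 (0.01 to 0.66) in SP3-null cells, against -0.04 (-0.33 to 0.24) in wild-type cells, while HE lay below every other endothelial class in both. A Robo4 UMI was found in 41.4% of SP3-null and 46.8% of wild-type conflux AE cells and in 7.48% and 9.38% of the IAC cells, which after thinning became 24.5% and 25.7% in conflux AE and 0.971% and 0.794% in IAC.

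Plxnd1 (ENSMUSG00000030123, chr6:115954811-115995339) gave 19213 SP3-null and 22561 wild-type UMIs, the most of the 8 genes, and the flattest course. Its levels lay between 336 and 387 CPM in the 4 SP3-null and between 347 and 383 CPM in the 4 wild-type classes of AE, conflux AE and pre-HE. VE had 271 CPM in SP3-null and 303 CPM in wild-type Wnt-high cells and 293 and 302 CPM in Wnt-low cells. HE fell out of that range with 126 CPM in SP3-null and 188 CPM in wild-type cells, and IAC had 56.2 and 65.9 CPM. Neighbours in the order of pre-HE, AE and conflux AE did not differ beyond counting error in either library, whereas other endothelium (248 and 255 CPM), HE and IAC were each lower than the class above beyond counting error. A Plxnd1 UMI was found in 82.5% of SP3-null and 84.7% of wild-type HE cells and in 76.6% and 74.2% of IAC cells, and after thinning in 52.8% and 58.2% of HE cells and 26.2% and 27.8% of IAC cells.

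**Figure D1:**
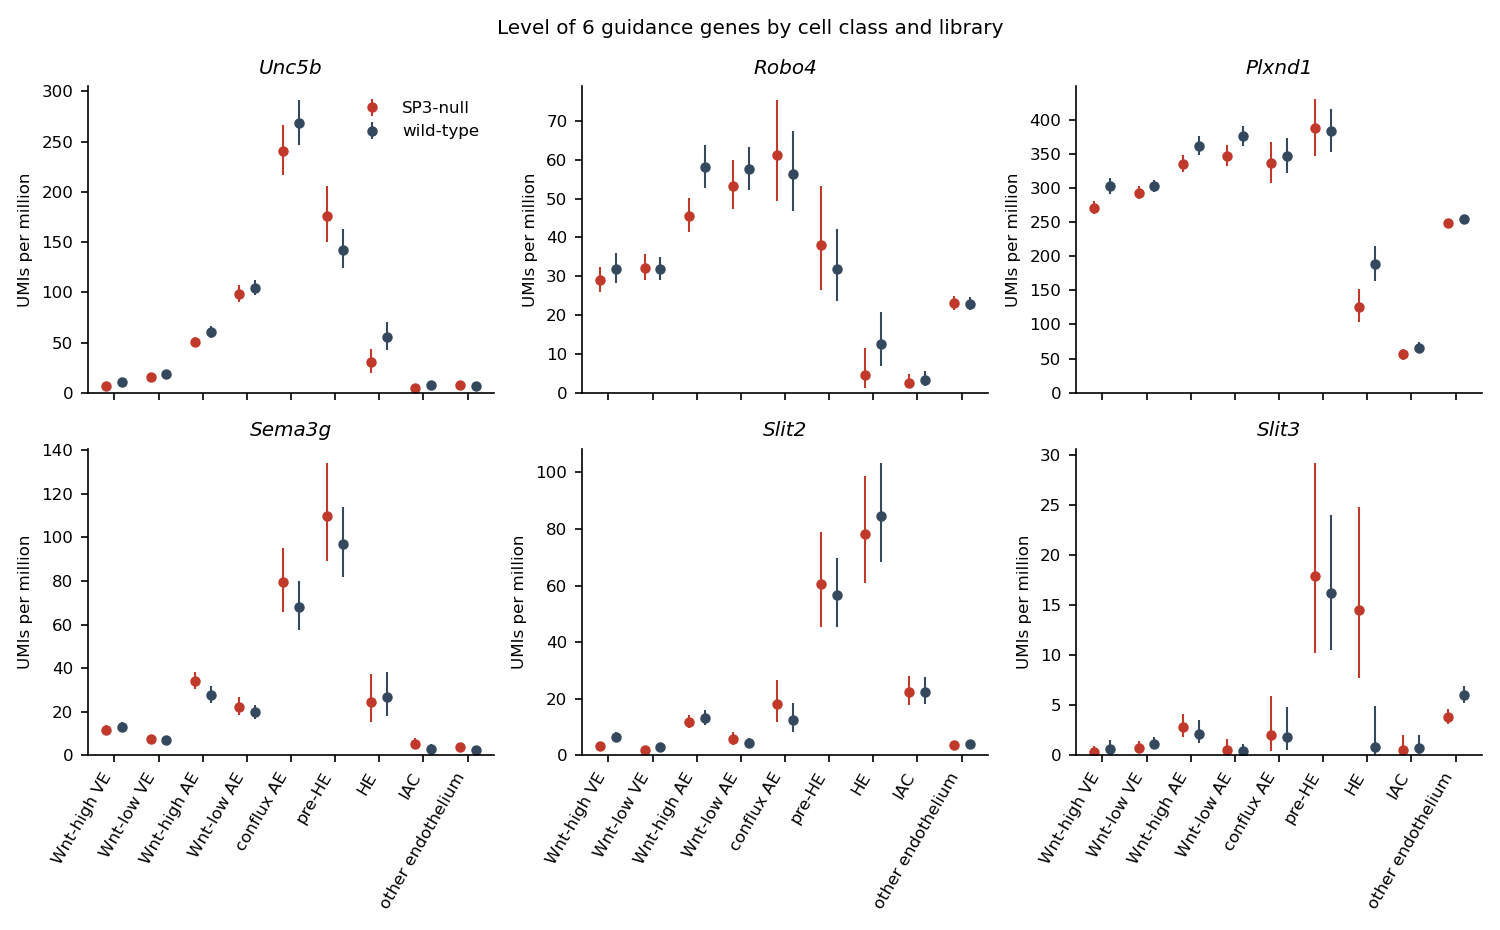
Level in CPM (y axis, linear) of 6 guidance genes in 9 classes (x axis), with SP3-null (red) left of wild-type (dark blue) and exact 95% Poisson intervals for counting error only. Unc5b peaked in conflux AE (241 CPM SP3-null, 268 CPM wild-type), Sema3g in pre-HE (110 and 96.9 CPM) and Slit2 in HE over all cells (78.2 and 84.4 CPM, in SP3-null within counting error of pre-HE), while Plxnd1 was at 248 CPM or more in every class but HE and IAC.

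Among the ligands, Sema3g (ENSMUSG00000021904, chr14:31217873-31230352) followed the arterial classes and was highest in pre-HE. It stood at 34.2 CPM in SP3-null and 27.8 CPM in wild-type Wnt-high AE, with 22.2 and 19.9 CPM in Wnt-low AE, at 79.6 and 68.1 CPM in conflux AE, at 110 and 96.9 CPM in pre-HE, at 24.6 and 26.7 CPM in HE and at 5.17 and 3.08 CPM in IAC. Wnt-high VE had 11.7 and 12.9 CPM, Wnt-low VE 7.38 and 7.25 CPM, and other endothelium 4.10 and 2.48 CPM. Pre-HE lay above conflux AE, and conflux AE above Wnt-high AE, beyond counting error in both libraries, whereas HE, which came between Wnt-high and Wnt-low AE, was within counting error of both. Wnt-high AE lay above Wnt-low AE beyond counting error in both libraries, with a log2 ratio of 0.63 (0.31 to 0.95) in SP3-null and 0.49 (0.17 to 0.80) in wild-type cells. A Sema3g UMI was found in 52.2% of SP3-null and 56.6% of wild-type pre-HE cells (29.7% and 39.2% after thinning), at a median of 9163 and 9257.5 UMIs per cell, against 12.1% and 7.81% of IAC cells (0.971% and 1.59%). After thinning, the log2 ratio of pre-HE over conflux AE was 0.06 in place of 0.47 in SP3-null cells and 0.73 in place of 0.51 in wild-type cells.

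Slit2 (ENSMUSG00000031558, chr5:47981291-48307735) was lowest in Wnt-low VE and highest in pre-HE and HE. It stood at 11.8 CPM in SP3-null and 13.1 CPM in wild-type Wnt-high AE, with 5.69 and 4.33 CPM in Wnt-low AE, at 18.2 and 12.7 CPM in conflux AE, at 60.6 and 56.6 CPM in pre-HE, at 78.2 and 84.4 CPM in HE and at 22.4 and 22.5 CPM in IAC. Wnt-high VE had 3.5 and 6.46 CPM and Wnt-low VE 1.78 and 2.86 CPM, and other endothelium 3.77 and 4.04 CPM. Slit2 was found in 33.7% of SP3-null and 36.0% of wild-type pre-HE cells (24.3% and 27.5% after thinning) and in 57.5% and 69.5% of HE cells (19.4% and 34.5%). In Wnt-low VE, the class with the lowest level, the share was 2.66% and 4.03% (1.36% and 0.964%), at a median of 14460.5 SP3-null and 14280.5 wild-type UMIs per cell, against 21366 and 17656 in HE. No order of pre-HE and HE is read from these shares.

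The HE level of Slit2 rested in part on 1 cell. Of 70 Slit2 UMIs in SP3-null HE, 34 came from a single cell of 19895 UMIs, which also held 52 UMIs of the neural list, 0 UMIs of the endothelial list and 4 of the 13 Slit3 UMIs of that class. In wild-type other endothelium 43 of 129 Slit2 UMIs came from 1 cell with 55 neural and 0 endothelial list UMIs. At least 2 UMIs of the neural list were found in 4 of 40 SP3-null and 3 of 59 wild-type HE cells. Without cells that held 2 or more UMIs of a neural, floor plate, macrophage, mesenchymal or epithelial list, 7 SP3-null and 5 wild-type HE cells fewer, Slit2 stood at 50.5 CPM in SP3-null and 85.5 CPM in wild-type HE, and at 66.0 and 53.7 CPM in pre-HE. HE was then the highest class for Slit2 in the wild-type library alone. The summed endothelium holds neither HE nor other endothelium, so the single cells described above were never part of it. Without the marked cells of its own classes, its Slit2 log2 ratio between genotypes was -0.19 in place of -0.21.

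Slit3 (ENSMUSG00000056427, chr11:35121456-35708507) was highest in pre-HE, with 18 CPM in SP3-null and 16.3 CPM in wild-type cells (16 and 25 UMIs). Other endothelium had 3.81 and 6.02 CPM (104 and 192 UMIs), Wnt-high AE 2.82 and 2.18 CPM, conflux AE 2.02 and 1.88 CPM, IAC 0.574 and 0.712 CPM, and the other AE and VE classes 0.359 to 0.764 CPM in SP3-null and 0.406 to 1.13 CPM in wild-type cells. In HE, Slit3 had 13 UMIs in SP3-null cells (14.5 CPM) and 1 UMI in wild-type cells (0.889 CPM). Of those 13, 10 lay in cells with 2 or more UMIs of another cell type's list, and without such cells 3 SP3-null UMIs and 1 wild-type UMI were left, a log2 ratio of 2.11 (95% interval -1.53 to 7.82). Slit1, the remaining SLIT ligand, named here after its values were seen, had 0 UMIs in the summed endothelium of both libraries, which allows up to 0.0761 CPM in SP3-null and 0.0713 CPM in wild-type cells, but 17 UMIs in SP3-null and 0 UMIs in wild-type HE. Whether cells with markers of other types account for the Slit3 count was not tested beyond leaving them out.

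Ntn4 (ENSMUSG00000020019, chr10:93641049-93745972) and Sema3c (ENSMUSG00000028780, chr5:17574816-17730268) were too rare for more than counts. Ntn4 gave 26 SP3-null and 36 wild-type UMIs over all cells, of which 12 SP3-null and 21 wild-type UMIs lay in pre-HE and HE together. Its level was 5.61 CPM in SP3-null and 7.81 CPM in wild-type pre-HE and 7.82 and 8 CPM in HE, and at most 2.02 CPM in any other class. Wnt-low VE held 0 Ntn4 UMIs in both libraries, which allows up to 0.255 CPM in SP3-null and 0.200 CPM in wild-type cells by a floor of 3 counts. Sema3c gave 15 SP3-null and 21 wild-type UMIs, 8 and 11 of them in other endothelium, and 0 UMIs in IAC of either library, which allows up to 0.861 and 0.712 CPM.

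The steps from class to class were read by a fold of 2 or more in the same direction in both libraries, among genes with 200 or more UMIs over all cells, which 6 of the 8 genes reached, and 10 or more UMIs over the pair of classes in each library. Since the authors made the classes from the same cells, these are descriptions. From VE to AE, Unc5b, Sema3g and Slit2 were higher in AE, 3 of 6 genes, against 2.41% of all genes read, and none was lower, against 0.458%. The log2 ratio of AE over VE was 2.59 in SP3-null and 2.38 in wild-type cells for Unc5b, 1.65 and 1.35 for Sema3g, and 1.87 and 1.06 for Slit2. For Robo4 it was 0.66 and 0.86, and for Plxnd1 0.27 and 0.29, below the fold but with intervals above 0 in both libraries. From AE to conflux AE, Unc5b (1.81 and 1.70) and Sema3g (1.42 and 1.51) were higher, against 3.62% of all genes, and none was lower, against 3.13%. The arterial list was also higher in conflux AE, at 953 CPM in SP3-null and 1028 CPM in wild-type cells, than in either AE class. From conflux AE to pre-HE both SLIT genes were higher, Slit2 with log2 ratios of 1.74 in SP3-null and 2.16 in wild-type cells and Slit3 with 3.15 and 3.11, against 2.58% of all genes, and none was lower, against 1.83%. The Slit3 ratios rested on only 3 SP3-null and 4 wild-type UMIs in conflux AE, with intervals of 1.35 to 5.57 and 1.58 to 5.10. Both SLIT genes held that fold when cells with other markers were left out. A mesenchymal and mural list of 7 genes moved with this step, at 34.8 CPM in SP3-null and 26.7 CPM in wild-type pre-HE, against 8.09 and 1.88 CPM in conflux AE. In the other classes it ran from 1.44 to 14.5 CPM in SP3-null and from 1.61 to 8.89 CPM in wild-type cells. Of its defining genes, Pdgfrb and Col1a1 were at 0 in SP3-null pre-HE and Col1a1 in wild-type pre-HE. Its part in the step, beyond the cells left out, was not tested.

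From pre-HE to HE all 3 receptors and Sema3g were lower. The log2 ratio of HE over pre-HE was -2.55 in SP3-null and -1.37 in wild-type cells for Unc5b, -3.09 and -1.36 for Robo4, -1.62 and -1.02 for Plxnd1, and -2.16 and -1.86 for Sema3g. These were 4 of 6 genes, against 7.09% of all genes that were lower in HE, and none was higher, against 3.73%. The endothelial list also fell from pre-HE to HE, from 3538 to 1117 CPM in SP3-null and from 3371 to 1281 CPM in wild-type cells. Each cell weighted alike, 3 genes passed the fold, since Unc5b in wild-type cells stood at -0.87, and after thinning 2 passed, Plxnd1 and Sema3g. Without cells that held markers of other types Plxnd1 missed the fold and Slit3 passed it, on 3 SP3-null UMIs and 1 wild-type UMI in HE. From HE to IAC, Unc5b, Plxnd1, Sema3g and Slit2 were lower, 4 of 5 genes with enough UMIs, against 7.63% of all genes, and none was higher, against 2.75%. The endothelial list was lower there too, at 354 CPM in SP3-null and 353 CPM in wild-type IAC. After thinning Slit2 missed the fold, with a log2 ratio of IAC over HE of -0.86 in SP3-null and -1.63 in wild-type cells, and 34 of its 70 UMIs in SP3-null HE came from the single cell described above.

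By Wnt target class, Slit2 (log2 ratio of Wnt-high over Wnt-low AE of 1.06 in SP3-null and 1.60 in wild-type cells) and Slit3 (2.31 and 2.43) were higher in Wnt-high AE, 2 of 6 genes against 2.55% of all genes, and none was lower, against 0.942%. The Slit3 ratios rested on only 3 UMIs in Wnt-low AE of each library. Their intervals ran from 0.59 to 4.68 in SP3-null and from 0.62 to 4.85 in wild-type cells. Unc5b ran the other way, with -0.96 in SP3-null and -0.79 in wild-type AE and -1.22 and -0.77 in VE, short of the fold in at least 1 library each time. No gene of the 6 passed the fold between the VE classes, where 1.55% of all genes were higher and 0.947% lower in Wnt-high cells. Other endothelium differed from AE and VE together by lower Unc5b (-2.14 in SP3-null and -2.62 in wild-type cells) and Sema3g (-2.07 and -2.59), against 2.26% of all genes, and by higher Slit3 (1.78 and 2.46), against 0.997%.

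With these courses, the mix of receptor and ligand transcripts changed along the path. The 5 ligand genes gave 2.88% of the UMIs of all 8 genes in SP3-null and 3.16% in wild-type Wnt-low VE, 10.3% and 8.36% in Wnt-high AE, 13.8% and 11.2% in conflux AE, 24.4% and 24.2% in pre-HE, 44.2% and 31.9% in HE and 31.1% and 25.7% in IAC. The counts are 3' ends and were not taken per length, so that these shares compare classes and not the amounts of different genes. The higher share in HE came with 161 CPM of receptor UMIs in SP3-null and 256 CPM in wild-type cells, against 601 and 558 CPM in pre-HE. Ligand UMIs stood at 127 and 120 CPM in HE, the SP3-null value including the single neural-marked cell described above. This was below the 194 and 178 CPM of ligand UMIs in pre-HE, so the share rose while both levels fell. Cells with 2 or more UMIs of another cell type's list held 35 of the 70 Slit2 and 10 of the 13 Slit3 UMIs of SP3-null HE. In wild-type HE such cells held 10 of 95 Slit2 UMIs and 0 of 1 Slit3 UMI. The ligand share was not recomputed without them.

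The genes were also counted per cell, and these shares were not compared with what independent detection of each gene would give. After thinning to 5000 UMIs, at least 3 of the 8 genes were found in 37.7% of SP3-null and 32.1% of wild-type conflux AE cells and in 29.7% and 41.2% of pre-HE cells. In Wnt-high AE the shares were 12.4% of SP3-null and 14.7% of wild-type cells, while Wnt-low VE had 2.89% and 1.65%.

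**Figure D2:**
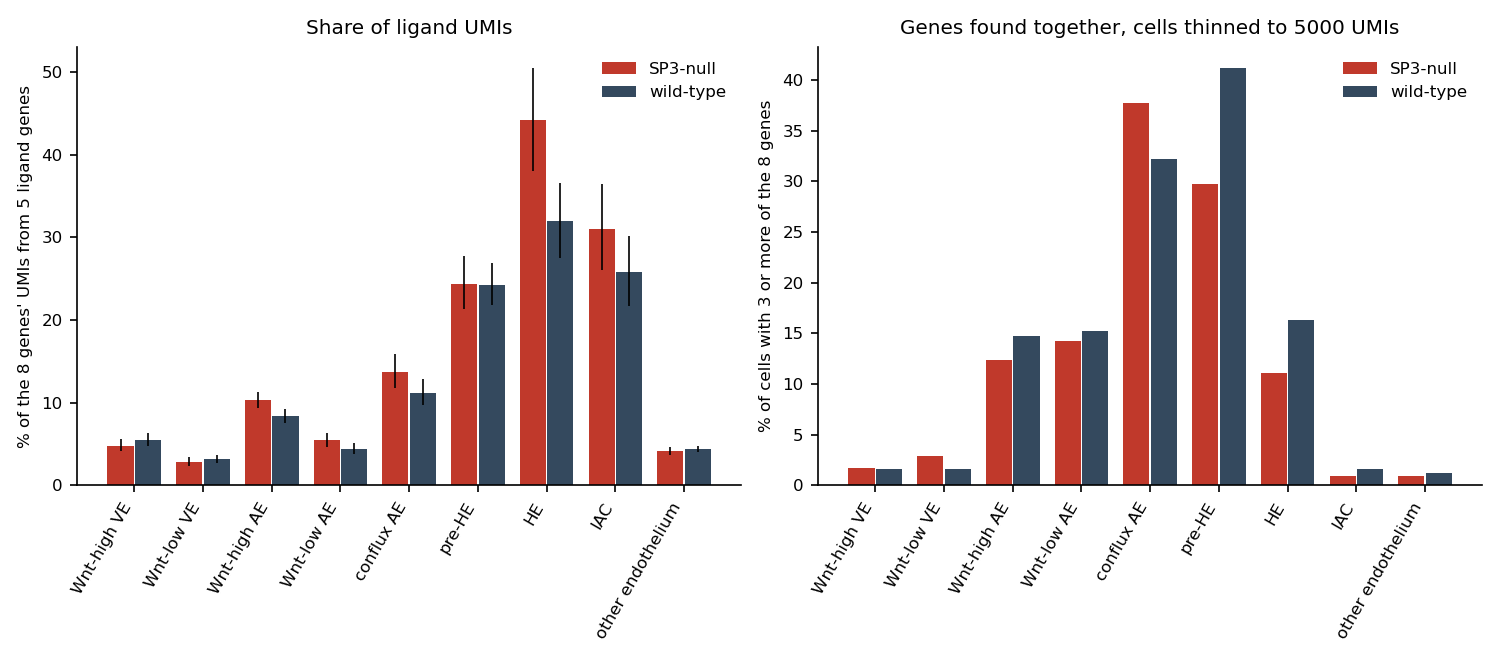
Left, share of the UMIs of the 8 genes that came from the 5 ligand genes (y axis, percent) by class, SP3-null (red) left of wild-type (dark blue), with exact 95% binomial intervals for counting error. Right, percent of cells thinned to 5000 UMIs with at least 3 of the 8 genes. Over all cells the ligand share was highest in HE (44.2% and 31.9%). In SP3-null HE 35 of 70 Slit2 and 10 of 13 Slit3 UMIs lay in cells with markers of other types, which are included. Cells with 3 or more of the genes were most frequent in conflux AE and pre-HE (29.7% to 41.2%).

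Between the genotypes, Unc5b was lower in the SP3-null library, and the other receptors differed less. Over the summed endothelium Unc5b stood at 44.2 CPM in SP3-null and 56.5 CPM in wild-type cells, a log2 ratio of -0.36 (95% interval -0.45 to -0.27), which was past the log2 limit of 0.32 in size used for this comparison. Robo4 stood at 38.4 and 42.2 CPM (-0.14, -0.24 to -0.04) and Plxnd1 at 307 and 331 CPM (-0.11, -0.14 to -0.07). Of the ligands, Sema3g stood at 21.6 CPM in SP3-null and 20.6 CPM in wild-type cells (0.07, -0.06 to 0.21), Slit2 at 7 and 8.1 CPM (-0.21, -0.45 to 0.02) and Slit3 at 1.52 and 1.69 CPM (-0.15, -0.67 to 0.37), with all 3 intervals across 0. Sema3c gave 5 and 10 UMIs and Ntn4 13 and 20 UMIs in these sums. Thus 1 of the 6 genes with 50 or more UMIs was past the limit downward and none upward, against 6.48% and 2.67% of the 10146 genes with 200 or more UMIs, a number that all of the 6 but Slit3 reached. Of the 6, 5 had a ratio below 0, as did 57.1% of all genes. An interval below 0 was found for 3 of the 6 and for 22% of all genes, and an interval above 0 for none and for 13.7%. Whether an interval clears 0 depends on the UMIs of the gene, of which Plxnd1 had 26050. The shares of all genes were not matched for UMIs. The median ratio was -0.14 over the 6 genes and -0.02 over all genes.

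The classes contributed unequally to the sum of Unc5b. Conflux AE and pre-HE, its highest classes, made up 9.87% of the cells and 6.02% of the UMIs of the SP3-null summed endothelium, against 12.3% of the cells and 8.71% of the UMIs in the wild-type, and they gave 29.5% of its UMIs in SP3-null and 33.2% in wild-type cells. When the CPM of the 6 classes was averaged with equal weight, the log2 ratio of Unc5b was -0.04, and when each cell was weighted alike it was -0.31. Conflux AE and pre-HE, with the highest CPM, weigh most in that class average, and pre-HE was the only one of the 6 classes with a ratio above 0. The summed value mixes the share of each class with the level within it, and the part of each was not tested. Within classes the ratio was below 0 in 7 of 9, with -0.25 (-0.44 to -0.06) in Wnt-high AE, -0.08 (-0.25 to 0.08) in Wnt-low AE, -0.16 (-0.35 to 0.04) in conflux AE, -0.87 (-1.58 to -0.20) in HE and -0.70 (-1.16 to -0.25) in Wnt-high VE. It was above 0 in pre-HE at 0.31 (0.00 to 0.61), and at 0.26 (-0.06 to 0.57) there without the cell with the most Unc5b UMIs in each library. In IAC it was -0.59 (-1.54 to 0.31) on 17 SP3-null and 31 wild-type UMIs, and 0.31 without cells that held markers of other types.

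For Robo4 the only class interval clear of 0 was in Wnt-high AE, with a log2 ratio of -0.35 (-0.55 to -0.15), while it was 0.02 (-0.18 to 0.21) in Wnt-low VE and 0.01 (-0.14 to 0.17) in other endothelium. Plxnd1 was below 0 in 8 of 9 classes, by -0.11 in each AE class, -0.16 (-0.24 to -0.08) in Wnt-high VE and -0.58 (-0.92 to -0.24) in HE. Without the HE cells that held markers of other types, Plxnd1 stood at 146 CPM in SP3-null and 201 CPM in wild-type HE (-0.46, -0.82 to -0.11) and Unc5b at 34.6 and 57.3 CPM (-0.73, -1.48 to -0.02). Sema3g was above 0 in 7 of 9 classes, with intervals above 0 in Wnt-high AE (0.30, 0.04 to 0.56) and in other endothelium (0.73, 0.30 to 1.16). Slit2 was lower in SP3-null Wnt-high VE (39 and 56 UMIs, log2 ratio -0.88, -1.51 to -0.27), and in HE its ratio was -0.11 over all cells and -0.96 (-1.56 to -0.38) without the top cell of each library, while in other endothelium it was -0.10 and 0.43. Slit3 was lower in SP3-null other endothelium (-0.66, -1.02 to -0.31).

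By class, intervals that excluded 0 were counted among genes with 50 or more UMIs in the class. The shares of all genes beside them were again not matched for UMIs. In Wnt-high AE 3 of 5 genes lay below 0 (Unc5b, Robo4 and Plxnd1) and 1 above (Sema3g), against 12.8% and 7.45% of all genes. In Wnt-high VE 3 of 5 lay below (Unc5b, Plxnd1 and Slit2) and none above, against 12.1% and 7.53%. In HE 2 of 4 lay below (Unc5b and Plxnd1) and none above, against 6.54% and 7.6%. Fewer genes stood clear of 0 elsewhere. In Wnt-low AE 1 of 5 lay below (Plxnd1) and none above, against 9.41% and 6.41%. In pre-HE none of 5 lay below and 1 above (Unc5b), against 7.69% and 6.74%. In other endothelium 1 of 6 lay below (Slit3) and 1 above (Sema3g), against 15.5% and 12.4%. No gene stood clear of 0 in either direction in conflux AE (5 genes, against 6.8% below and 5.37% above), in IAC (2 genes, against 9.13% and 6.16%) or in Wnt-low VE (5 genes, against 10.5% and 8.47%).

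**Figure D3:**
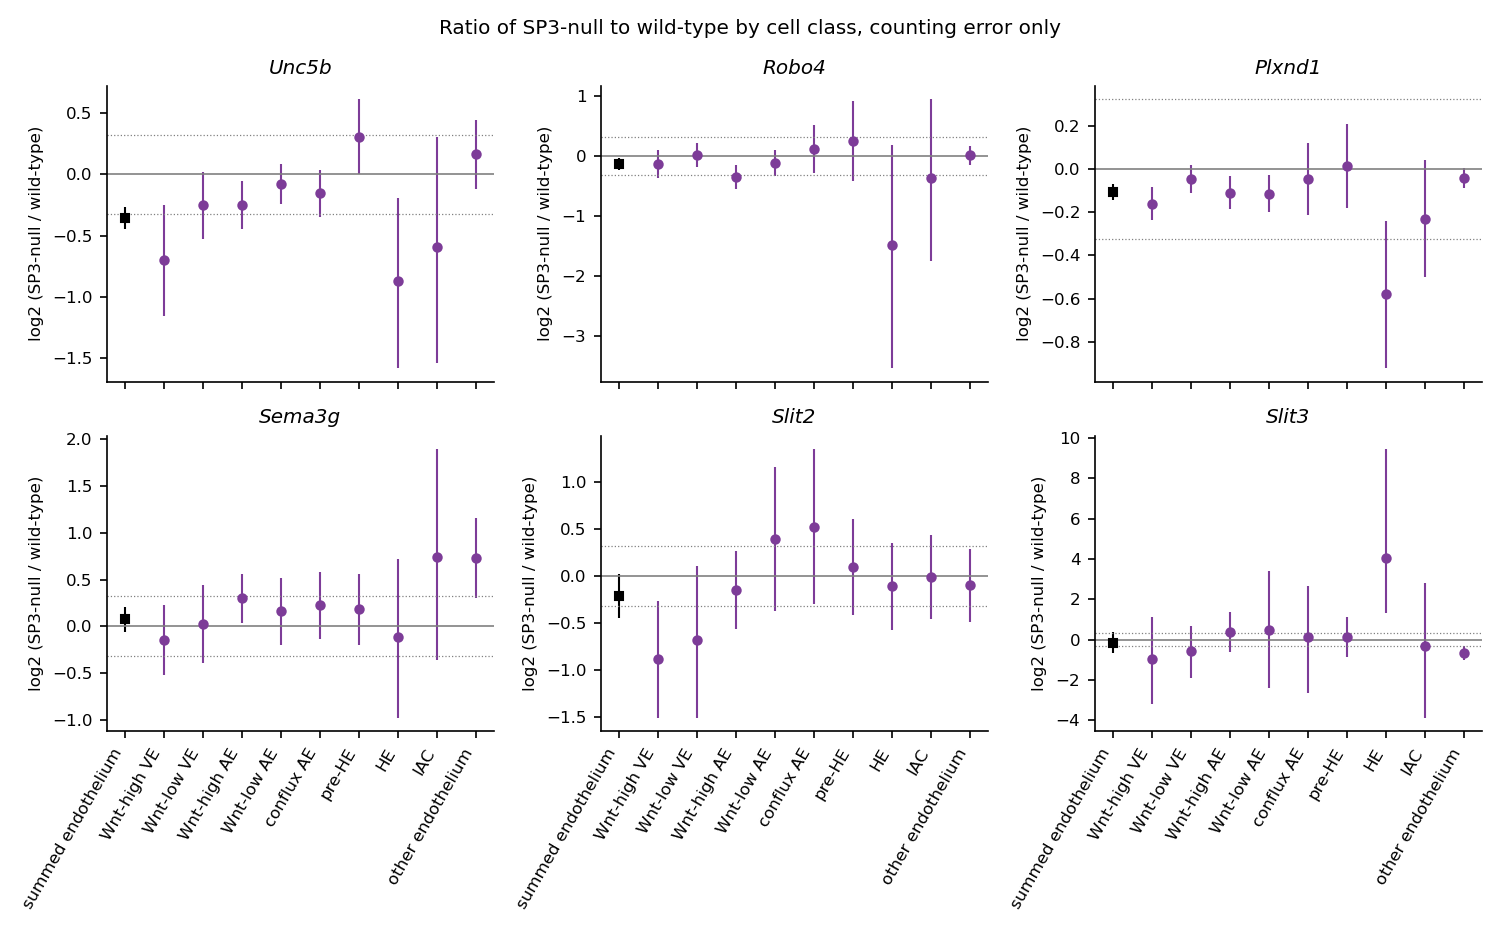
Log2 ratio of SP3-null over wild-type CPM (y axis, own scale per panel) for 6 guidance genes in the summed endothelium (black square) and in 9 classes (purple points), with exact 95% intervals for counting error only and dotted lines at log2 0.32 on either side of 0. Unc5b in the summed endothelium (-0.36) lay below the lower dotted line, and most intervals within classes crossed 0.

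The genes around these members were read from 4 lists: netrins with UNC5 and their partners, SLIT and ROBO genes, plexins with neuropilins, and semaphorins. Of 50 listed genes 49 were in the table, 30 had 50 or more UMIs in the summed endothelium, 20 of these lay below 0 and 10 above, against 57.1% of all genes below 0, and their median log2 ratio was -0.13. Past the same limit, 4 were higher and 3 lower in SP3-null cells, against 2.67% and 6.48% of all genes. The minimum was 50 UMIs for the lists but 200 UMIs for all genes, so these counts and shares are not alike. Each of the 4 higher genes had fewer than 200 UMIs over both libraries, as did Sema4b among the 3 lower. The counts below 0 in each list are to be read against the same 57.1%. Of 11 measured semaphorins 10 lay below 0 (median -0.19), among them the transmembrane semaphorins Sema6d, at 124 CPM in SP3-null and 141 CPM in wild-type cells (-0.19, -0.25 to -0.14), and Sema6a, at 63.5 and 65.0 CPM (-0.03, -0.11 to 0.04). The ends of this list were Sema4b, with 23 SP3-null and 45 wild-type UMIs (-0.87, -1.67 to -0.12), and Sema3a, with 87 and 71 UMIs (0.39, -0.08 to 0.86). Of 9 plexins and neuropilins 7 lay below 0 (median -0.19). Nrp1, a co-receptor of class 3 semaphorins, had 9900 UMIs in SP3-null and 11384 UMIs in wild-type cells (-0.11, -0.15 to -0.07), and Nrp2 at 125 and 123 CPM (0.02, -0.03 to 0.08). Plxnb1, with 294 SP3-null and 261 wild-type UMIs (0.27, 0.02 to 0.51), and Plxnc1, with 79 and 105 UMIs (-0.32, -0.76 to 0.12), were the ends of that list. Nrp1 and Nrp2 were among the genes by which the authors told arterial from venous cells.

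On the netrin side 5 of 7 measured genes lay above 0 (median 0.09). Unc5c, another netrin receptor, gave 104 UMIs in SP3-null and 70 UMIs in wild-type cells (0.66, 0.21 to 1.12), while Unc5b, with more UMIs, lay below 0. Flrt3, a partner of UNC5B, stood at 7.99 CPM in SP3-null and 10.6 CPM in wild-type cells (-0.41, -0.63 to -0.20), its relative Flrt2 at 26.5 and 29.0 CPM (-0.13, -0.25 to -0.01), and the netrin receptor Neo1 at 18.1 and 17.3 CPM (0.06, -0.09 to 0.21). Among SLIT and ROBO genes, Robo1 stood at 30.1 and 35.2 CPM (-0.23, -0.34 to -0.12), and Srgap1, which codes for a GTPase activator that acts below ROBO receptors, at 131 and 122 CPM (0.11, 0.05 to 0.16), with its relative Srgap2 at 58.4 and 57.6 CPM (0.02, -0.06 to 0.10). Robo1 was highest in Wnt-low AE (44.9 CPM SP3-null, 54.0 CPM wild-type) and stood at 7.82 and 8.89 CPM in HE. Ntn1, a netrin ligand of UNC5B, gave 1 UMI in the SP3-null and 6 UMIs in the wild-type summed endothelium, and 9 UMIs in SP3-null and 1 UMI in wild-type HE. Sema3e, a ligand of PLXND1, gave 0 UMIs in the SP3-null and 1 UMI in the wild-type summed endothelium. Both were named after their values were seen.

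**Figure D4:**
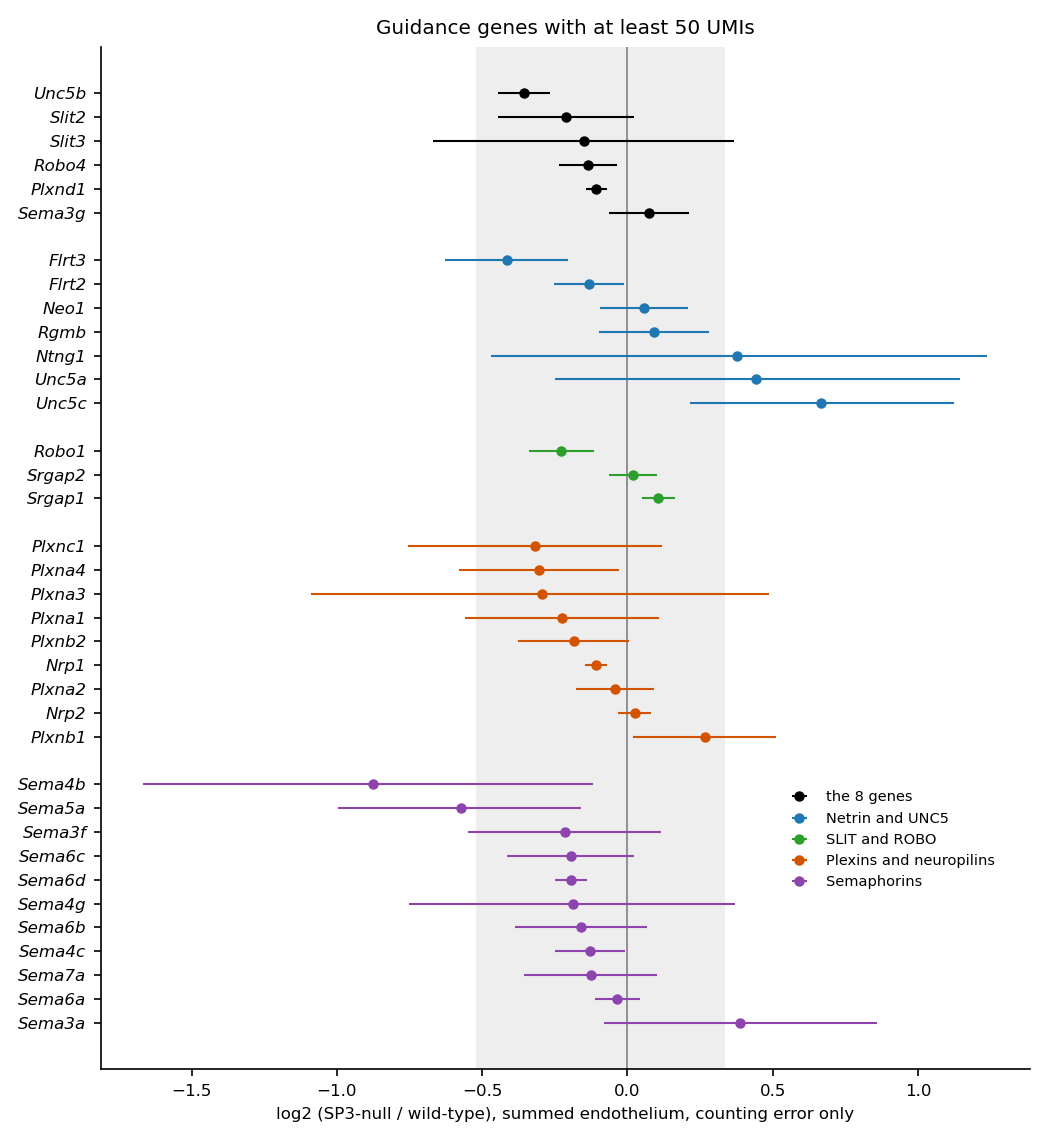
Log2 ratio of SP3-null over wild-type CPM in the summed endothelium (x axis) for the 6 of 8 genes and the 30 genes of 4 lists with at least 50 UMIs, with exact 95% intervals for counting error. The grey band holds the central 95% of 10146 genes with at least 200 UMIs (-0.52 to 0.33). Unc5b (-0.36) is the lowest of the 6 plotted, and Unc5c (0.66) and Sema4b (-0.87) are the highest and lowest of the lists.

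The genes most alike in level were sought by Pearson's r of log2(CPM + 1) over the 18 sums of 9 classes and 2 libraries, as a description over sums that share libraries and cells, among genes with 200 or more UMIs. For Unc5b they were Hey1 (r = 0.97), Sorbs2 (0.97) and Dll4 (0.97), of which Hey1, a Notch target, stood at 252 CPM in SP3-null and 275 CPM in wild-type conflux AE, its highest class. Dll4 was one of the genes used for the arterial call. For Robo4 they were Etl4 (0.99), Sema6d (0.99) and Pcdh12 (0.98), and for Plxnd1 Lamb1 (0.99), Eva1b (0.98) and Tspan9 (0.98). For Sema3g they were Fbxw9, H19 and Afap1l1 (each 0.97), for Slit2 Sptssa (0.97), Ocln (0.96) and Synrg (0.96), and for Slit3 Sox4 (0.86), Vldlr (0.85) and St6gal1 (0.84). For the rare ligands they were Pex19 (0.91), Lsm14b (0.86) and Slx4ip (0.84) with Sema3c, and Spin4 (0.96), Zfp26 (0.96) and Fzd2 (0.95) with Ntn4, where few UMIs of the ligand set the value. All sums kept the cells with markers of other types. In SP3-null HE these held 10 of the 13 Slit3 UMIs, and a single one of them held 34 of the 70 Slit2 UMIs. Among the members the closest pairs were Robo4 with Plxnd1 (0.96) and Unc5b with Sema3g (0.91), whereas Slit2 ran against Robo4 (-0.40) and Plxnd1 (-0.30).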

How the data were processed

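The authors aligned reads to mm10 (GRCm38) with Cell Ranger, whose version is not given in the sources used here, removed barcodes under 1000 UMIs or 1000 genes (the lowest cell in the matrix held 1689 UMIs, and the lowest number of genes was 998), and gave each cell a class by the vote of its 3 nearest reference cells. The deposited matrix gives, for each gene in each cell, the raw count of UMIs. The deposited cell table gives library, class and the mitochondrial fraction, which served in 1 alternative filter, and its size factors and gene numbers were not used. The members and lists were chosen with earlier results of these data known. UMIs were summed per class and library and divided by the summed UMIs. Intervals at 95% are exact (Poisson for CPM, conditional for ratios, Clopper-Pearson for shares). UMIs that cluster in few cells are not covered by them. With 1 library per genotype no test was run. Named were the 8 genes, Sp3, for each of the 8 the 3 genes most alike, and of each list the 2 genes with the most UMIs and those with the highest and lowest ratio among genes with 50 or more UMIs. Others are marked in the text. Median UMIs per cell ranged from 8850 in SP3-null conflux AE to 31009 in wild-type IAC. No doublet caller was run here, so doublets remain, and an alternative left out the 5% deepest cells. A cell was thinned by drawing 5000 of its UMIs, and 504 SP3-null and 709 wild-type cells under 5000 UMIs were left out of thinned values. The ratio and interval step was tested on simulated data. Alternatives used edgeR 4.0.16 and DESeq2 1.42.0 factors in R 4.3.3. For ratios by class, leaving out each gene's richest cell or cells with markers of other types was chosen after seeing the data. Python 3.11.15, numpy 2.4.6, scipy 1.17.1 and pandas 2.3.3 were used. Of the marker lists, levels are printed for those beside a result, and 1 list is not reported here.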

Additional observations from a re-analysis of the deposited data

Results flagged for a closer look

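Between classes, ratios of opposite sign with intervals clear of 0 were found for Unc5b and Slit3. For Unc5b the log2 ratio of SP3-null over wild-type was 0.31 in pre-HE but -0.25 in Wnt-high AE, -0.87 in HE and -0.70 in Wnt-high VE. The pre-HE interval reached 0.00, and it spanned 0 without the cell with the most Unc5b UMIs in each library. For Slit3 the ratio was 4.03 in HE, on 13 SP3-null UMIs and 1 wild-type UMI, and -0.66 in other endothelium, on 104 and 192 UMIs. In SP3-null HE 10 of the 13 UMIs lay in cells with markers of other cell types. With 1 library per genotype, the difference between classes was not tested for either gene.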

How the results depend on the processing

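No paired analysis was possible because each genotype had 1 library. No ratio between genotypes reversed among the called ones. Over 11 alternatives the summed log2 ratio ran from -0.37 to -0.04 for Unc5b, -0.21 to -0.04 for Robo4, -0.14 to -0.07 for Plxnd1, -0.03 to 0.19 for Sema3g, -0.24 to 0.08 for Slit2 and -0.58 to 0.12 for Slit3, so that the sign was kept for the receptors. Unc5b lay outside its counting interval with classes weighted alike (-0.040), other endothelium added (-0.26) and cells thinned (-0.23), Plxnd1 with each cell weighted alike (-0.14) and Slit2 with classes weighted alike (0.081). Unc5b fell short of the limit of 0.32 in those 3 settings, with each cell weighted alike (-0.31) and over all cells (-0.27). The number of members past the limit downward was 0 with classes or with cells weighted alike, and stayed at 1 in the other 3 of these settings because Slit3 passed it (-0.58 thinned, -0.53 with other endothelium added, -0.42 over all cells). Between classes, 2 members were lower in HE than pre-HE after thinning, and 1 was higher in Wnt-high than Wnt-low AE with each cell weighted alike. At a fold of 1.5, 1 was lower in pre-HE than conflux AE, 1 lower in Wnt-high than Wnt-low AE, and 2 were higher and 2 lower in Wnt-high than Wnt-low VE. Without cells with markers of other types, 1 was higher in Wnt-high VE. The cause was not tested. Of 106 alternatives for ratios by class, 101 stayed within the interval and 5, for Slit2 in HE and other endothelium and Unc5b in IAC, did not. Thinning moved 112 of 144 shares of cells outside their intervals. Depth limits Sema3c and Ntn4 to counts, and intervals cover counting error only.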
